A study of Mus musculus with 6 samples.

Results

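The genes described here are 29 genes of fatty acid oxidation, the breakdown of fatty acids to acetyl-CoA in mitochondria and peroxisomes, in retinal microglia of mice labelled as conditional knockouts of the scavenger receptor gene Cd36 and of their floxed controls. They were taken by symbol from a table of 21851 genes: 22 belong to the mitochondrial pathway, 6 to the peroxisomal pathway, and Ppargc1a, a transcriptional co-activator, is described apart. The data are 6 RNA-seq libraries, 3 of mice labelled CD36 CKO and 3 of mice labelled CD36 flox, which are also called wildtype in the series' text. Retinal cells positive for CD45 with intermediate CD11b, the gate labelled microglia, were sorted and made into Smart-seq2 libraries. The protocol describes intravenous sodium iodate (NaIO3, 20 mg/kg), an oxidant toxic to the retinal pigment epithelium, or buffer, with collection 7 days later. No label used here gives the Cre driver, age, strain or treatment of a library. All 29 genes were counted in every library, with 24 to 3342 counts, and all 29 passed the filter on low counts.

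In mitochondrial oxidation a long-chain acyl group is passed to carnitine, carried across the inner membrane, returned to coenzyme A and then shortened in repeated rounds of dehydrogenation, hydration, a second dehydrogenation and thiolysis. Peroxisomes shorten very-long-chain and branched acyl groups by parallel enzymes and export shorter products. CD36 is a receptor for long-chain fatty acids and oxidised lipoproteins, and so a door for the substrate of this route. The comparison asks how transcripts of the route stand in libraries labelled as Cd36 conditional knockouts. Microglia and other macrophages are known to shift between fatty acid oxidation and glycolysis, and photoreceptors, Müller glia and pigment epithelium also oxidise fatty acids.

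The libraries held 13462683 to 20018910 counts. Cd36 itself stood at 122, 65.2 and 28.5 CPM (TMM-scaled counts relative to library size) in CKO 1 to 3, against 90.5, 193 and 144 CPM in flox 1 to 3. The ranges overlapped, and edgeR gave a log2 fold change of -0.98 with an SE of 0.51 (Benjamini-Hochberg adjusted p = 0.9996). Which exons the deletion removes is not given in the sources used here, so CKO and flox below mean the libraries so labelled. All 11 counted microglial marker genes had counts in every library, with a summed level of 6506 to 10235 CPM in CKO and 6998 to 10670 CPM in flox. Rod photoreceptor genes were present as well: 10 rod genes summed to 18630, 7883 and 6721 CPM in CKO 1 to 3, against 7415, 10504 and 15936 CPM in flox 1 to 3. The summed level of 9 Müller glia and astrocyte genes was 719, 843 and 1375 CPM in CKO 1 to 3. In flox 1 to 3 it was 876, 800 and 554 CPM, so the groups overlapped. All 9 had a positive log2 fold change, CKO over flox, beside 50.6% of all genes tested. Of these 9 genes, 0 had an unadjusted p under 0.05 by edgeR. Over the 6 libraries 10 vascular genes summed to 63.4 to 279 CPM. The sum of 8 pigment epithelium genes was 7.99 to 170 CPM, with Rpe65 at 0 counts in CKO 1 and flox 1. Of 8 monocyte genes, Lyz2 stood at 8978, 19890 and 9393 CPM in CKO and 5438, 6632 and 6170 CPM in flox, while the other 7 summed to 160 to 255 CPM in CKO and 102 to 191 CPM in flox, which overlap. The part of these genes in the differences below was not tested. Haemoglobin transcripts summed to 1927 CPM in CKO 1, 4242 CPM in flox 2 and 1759 CPM in flox 3, and to under 1 CPM in CKO 2, CKO 3 and flox 1. In bulk samples, fewer cells of a type and less RNA per cell cannot be told apart. The description codes of CKO 2 and CKO 3, and of flox 2 and flox 3, share their stem and end in OD or OS, the usual terms for right and left eye. If each such pair came from 1 mouse, the p-values here are too small and the intervals too narrow.

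Between CKO and flox no gene of the pathway passed the test, and most measured differences were small. Of the 29 genes 0 passed the test at an adjusted p of 0.05 (edgeR's quasi-likelihood test, Benjamini-Hochberg over 13477 genes), where 0% of all genes tested passed, and the smallest adjusted p was 0.9996. At an unadjusted p under 0.05, 0 of the 29 stood out by edgeR, beside 2.81% of all genes tested (1.45% higher and 1.37% lower in CKO). By DESeq2 0 of the 29 did, beside 581 genes, whose share was not computed. After adjustment DESeq2 called 0 of the 29 and 0.161% of the 14260 genes to which it gave an adjusted p. Log2 fold changes, CKO over flox, were positive for 14 and negative for 15 genes, and ran between -0.33 and 0.22. Their median was -0.01, beside 0.00374 over all genes tested, of which 49.4% were negative. The median was -0.00332 for the 22 mitochondrial genes, 11 of them positive, and 0.08 for the 6 peroxisomal genes, 3 of them positive. Every 95% interval held 0, and 28 of the 29 intervals lay within a log2 change of 1 in either direction, which is a 2-fold change. The exception was the little-expressed Ehhadh, with an interval of -1.42 to 0.90. These intervals treat the 6 libraries as independent. They limit the size of a difference only on that footing, and they do not show that the groups are alike.

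**Figure D1:**
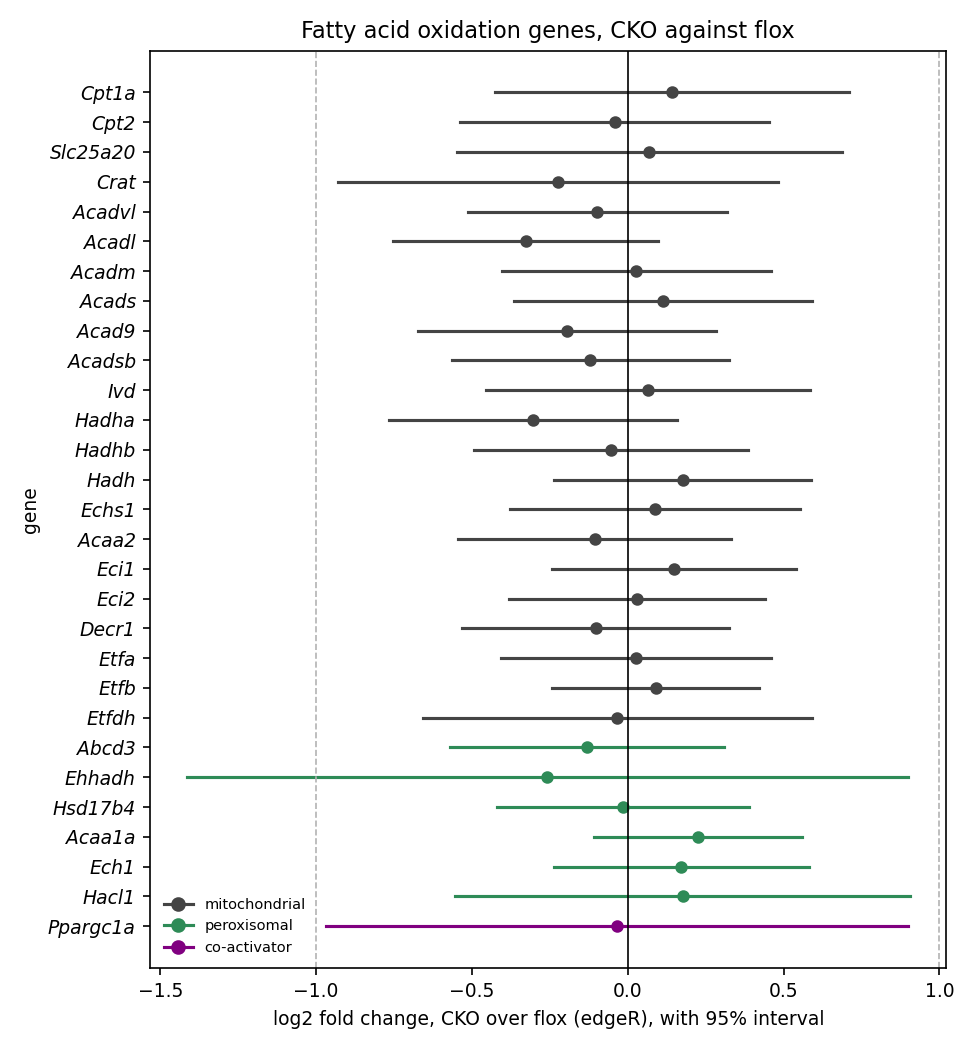
Log2 fold change of each gene, CKO over flox, as a point with its 95% interval from edgeR's quasi-likelihood fit on 3 CKO and 3 flox libraries. Dashed lines mark a log2 change of 1 in either direction, and every interval crosses 0.

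The genes differed far more among themselves than between labels. On a scale that allows genes to be compared, CPM per kilobase of the principal transcript, the mean over 6 libraries spanned 178-fold, with Etfb highest at 180 ± 11.8 (SD, n = 6) and Ehhadh lowest at 1.01 ± 0.285. The median gene of the pathway stood at 17.3 CPM per kilobase, and 24 of 29 lay above 5.80, the median of the 12384 genes with a mean of at least 1 CPM. Ech1 (133 ± 19.4), Echs1 (83.9 ± 14.3) and Etfa (74.4 ± 10.3) followed Etfb in level per kilobase. These are a dienoyl-CoA isomerase, the short-chain enoyl-CoA hydratase and the other subunit of the electron transfer flavoprotein. The carnitine shuttle was lower, with Cpt1a at 12.5 in CKO and 11.4 in flox, and over all libraries Slc25a20 at 11.4 ± 2.54, Cpt2 at 7.42 ± 0.924 and Crat at 5.80 ± 1.65 CPM per kilobase. In this order 25 of 28 neighbouring genes had overlapping ranges over the libraries. The steps that did not overlap were those between Etfb and Ech1, between Ech1 and Echs1, and between Ivd and Acadsb. The order was nearly the same in both groups: no gene shifted by more than 3 ranks between CKO and flox means, and 26 shifted by at most 2. Levels per kilobase depend on the transcript length used, which the estimated counts do not give.

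**Figure D2:**
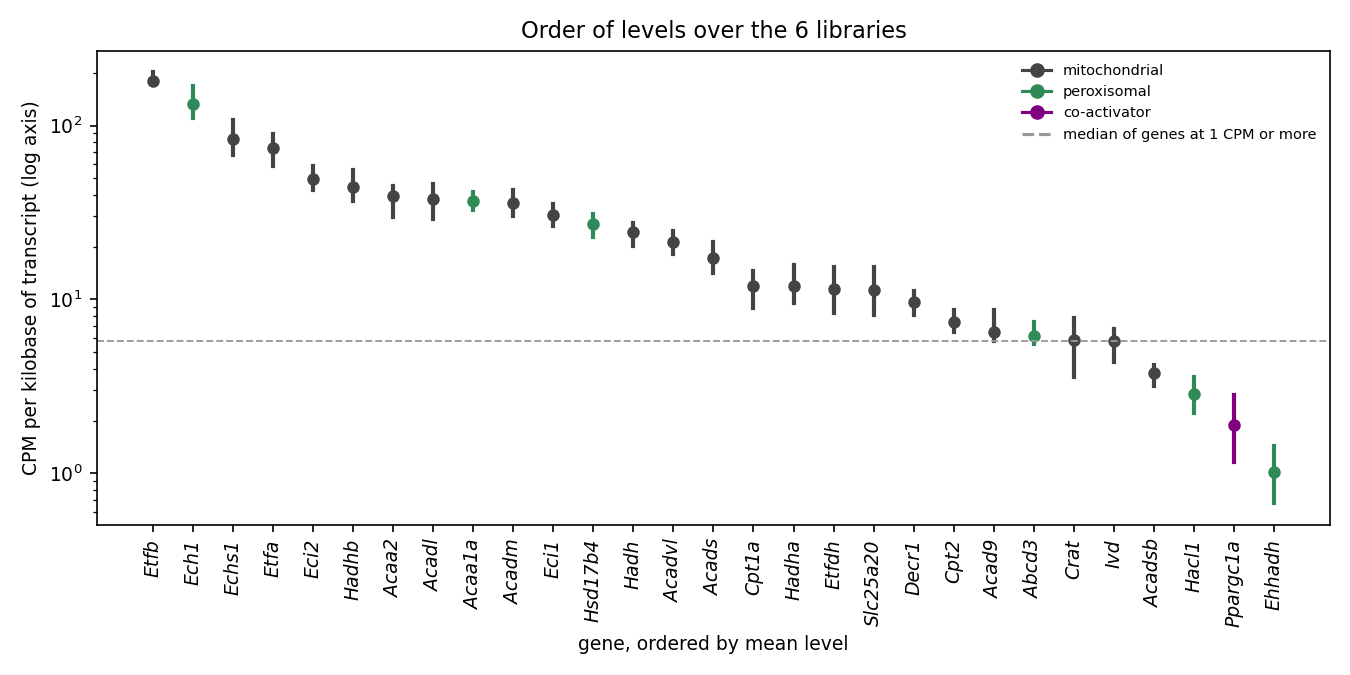
Level of each gene in CPM per kilobase of transcript (log axis), as the mean over 6 libraries (point) and the range from the lowest to the highest library (line). Etfb stands at 180 and Ehhadh at 1.01, and the dashed line marks the median of genes at 1 CPM or more, 5.80.

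Entry into the mitochondrion rests on Cpt1a, the outer-membrane carnitine palmitoyltransferase and the regulated step of the pathway (chromosome 19, 3322334 to 3385733, GRCm38). Cpt1a stood at 60.3, 40.1 and 61.9 CPM in CKO 1 to 3, against 45.9, 38.6 and 62.9 CPM in flox 1 to 3. Each group held a library near 40 and one above 60 CPM, and the log2 fold change was 0.14 (SE 0.25). The other 2 forms of this enzyme, named after their values were seen, were scarce. Cpt1b, the muscle form, had 0 counts in each CKO library and 1, 2 and 0 counts in flox 1 to 3, under the 3 counts that a count of 0 allows. Cpt1c, the neuronal form, stood at 3.05 ± 2.22 CPM in CKO and 2.22 ± 0.509 CPM in flox (SD, n = 3 each). Slc25a20, the carrier that exchanges acylcarnitine for carnitine, stood at 20.4, 27.6 and 14.5 CPM in CKO, against 17.0, 19.7 and 22.6 CPM in flox. The CKO libraries held both its highest and its lowest value. Cpt2, which returns the acyl group to coenzyme A, stood at 20.7, 15.3 and 16.0 CPM in CKO, against 16.6, 17.0 and 20.0 CPM in flox (log2 fold change -0.04, SE 0.22). Crat, which moves acetyl and short acyl groups onto carnitine in mitochondria and peroxisomes, stood at 18.9, 25.9 and 23.1 CPM in CKO, against 15.1, 31.2 and 33.0 CPM in flox. All 3 CKO values of Crat lay inside the flox range. Its log2 ratio was 0.70 among libraries without haemoglobin and -0.77 among those with it.

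**Figure D3:**
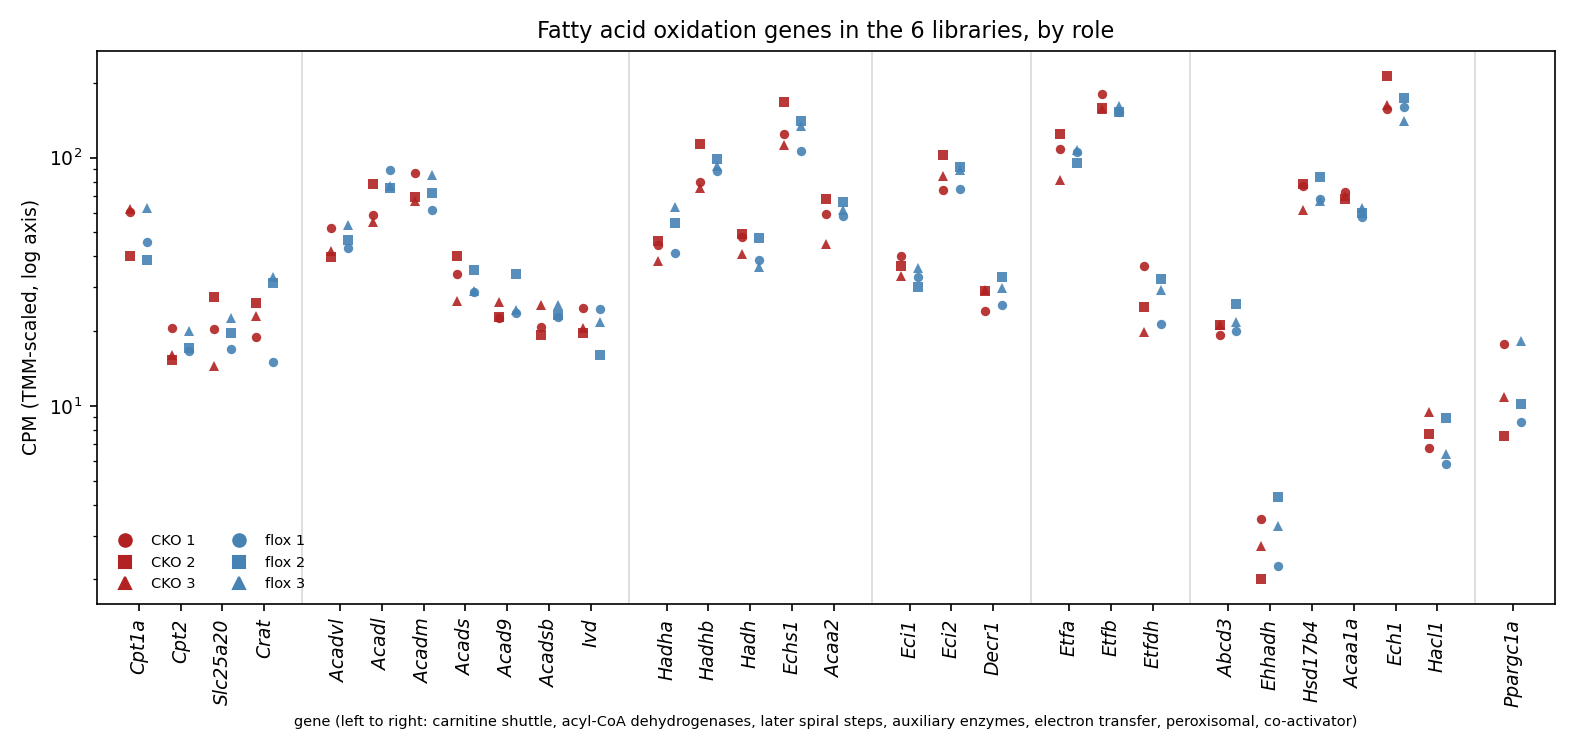
CPM (TMM-scaled, log axis) of the 29 genes in each library, grouped by role, with CKO in red at the left and flox in blue at the right of each gene. The groups overlap for every gene except Acaa1a, at 67.8 to 73.0 CPM in CKO and 57.5 to 62.8 CPM in flox.

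The acyl-CoA dehydrogenases carry out the first step of each round, each for its own chain length. Acadl, the long-chain enzyme, lay on chromosome 1 at 66830839 to 66863277 and had the smallest unadjusted p of the 29 genes (0.114, edgeR). Its level was 59.0, 78.2 and 55.3 CPM in CKO 1 to 3, against 88.9, 75.4 and 77.0 CPM in flox 1 to 3. CKO 1 and CKO 3 lay under all flox libraries, while CKO 2 lay within their range. The log2 fold change was -0.33 (SE 0.18, 95% interval -0.75 to 0.10), with log2 ratios of -0.41 among libraries without and -0.37 among libraries with haemoglobin. Acadvl, the very-long-chain enzyme, stood at 44.6 ± 6.73 CPM in CKO and 47.7 ± 5.25 CPM in flox (SD, n = 3 each). Acadm, the medium-chain enzyme, stood at 74.3 ± 10.8 CPM in CKO and 72.9 ± 11.8 CPM in flox, and Acads, the short-chain enzyme, at 33.6 ± 6.80 CPM in CKO and 31.0 ± 3.71 CPM in flox. For these 3 genes the difference of means was smaller than either SD. The ratio of Acadl to Acadm in CPM was 0.680, 1.13 and 0.824 in CKO 1 to 3, against 1.44, 1.04 and 0.906 in flox 1 to 3, so that the groups overlapped. Acad9, a relative that also helps to assemble respiratory complex I, stood at 22.6, 22.8 and 26.3 CPM in CKO, against 23.7, 34.0 and 24.3 CPM in flox. Flox 2 was its highest library, the other 5 lay between 22.6 and 26.3 CPM, and the log2 fold change was -0.19 (SE 0.21). Acadsb and Ivd act on intermediates of isoleucine and leucine breakdown. Acadsb stood at 20.7, 19.3 and 25.6 CPM in CKO, against 22.7, 23.2 and 25.5 CPM in flox. Both flox and CKO reached 25.5 CPM or more of Acadsb, and the log2 fold change was -0.12 (SE 0.19). Ivd stood at 21.7 ± 2.80 CPM in CKO and 20.8 ± 4.30 CPM in flox (SD, n = 3 each).

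Hadha and Hadhb encode the subunits of the mitochondrial trifunctional protein, which carries out the later steps on long chains, and they lie head to head on chromosome 5. Hadha runs from 30118304 to 30155162 on the minus strand and Hadhb from 30155248 to 30184593 on the plus strand. In RefSeq (GRCm38.p6) their start sites are 272 bases apart, so the 300-base windows that reach 250 bases before and 50 after each start share 228 bases. The window of Hadhb is shown because it holds most of the stretch between both subunits. The windows of Acadl and Acaa1a are shown because these genes had the smallest unadjusted p among the 29. Capitals mark matches on either strand to the GC box (GGGCGG) and to the CCAAT box (CCAAT).
Hadhb, chr5:30155003-30155302, plus strand: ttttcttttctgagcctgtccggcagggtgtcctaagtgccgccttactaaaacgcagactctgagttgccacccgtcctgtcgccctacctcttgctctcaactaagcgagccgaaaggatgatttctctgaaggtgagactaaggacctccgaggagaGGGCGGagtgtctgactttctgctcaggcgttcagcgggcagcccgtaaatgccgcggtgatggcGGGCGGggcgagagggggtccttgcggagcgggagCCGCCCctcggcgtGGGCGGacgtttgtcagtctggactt
Acadl, chr1:66863260-66863559, minus strand: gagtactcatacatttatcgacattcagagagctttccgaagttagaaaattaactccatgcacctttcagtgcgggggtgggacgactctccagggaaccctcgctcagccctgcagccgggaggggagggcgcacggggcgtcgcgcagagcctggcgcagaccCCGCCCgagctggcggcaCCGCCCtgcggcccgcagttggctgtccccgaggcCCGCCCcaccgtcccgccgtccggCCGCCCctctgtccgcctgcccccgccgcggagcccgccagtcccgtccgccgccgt
Acaa1a, chr9:119341044-119341343, plus strand: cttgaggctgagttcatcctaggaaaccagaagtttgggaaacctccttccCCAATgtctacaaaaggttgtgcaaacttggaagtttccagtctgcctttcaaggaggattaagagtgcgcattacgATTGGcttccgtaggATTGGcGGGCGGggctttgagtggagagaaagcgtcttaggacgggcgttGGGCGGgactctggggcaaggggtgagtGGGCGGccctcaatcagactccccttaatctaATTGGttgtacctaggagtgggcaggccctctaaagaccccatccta
Windows were at hand for 24 of the 29 genes. A GC box was found in 18 of the 24 and in 35.7% of all 32851 windows, which cover coding and non-coding genes, and a CCAAT box in 10 of the 24 and 37.4% of all. The oestrogen-related receptor element (AAGGTCA) was found for Acadm only (4.72% of all windows), and the PPAR direct repeat (AGGNCA repeated after 1 base) for 0 of 24 (0.381%). An NRF1 match (GCGC, any base, then TGCGC) was found for Etfb, Etfdh and Abcd3 (4.60%), and an ETS match (CCGGAAG) for Cpt2 and Slc25a20 (8.86%). All motifs were searched on both strands, and a match describes letters, not a bound site.

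The measured ratio of the paired subunits varied between libraries, and the part of measurement error in this was not tested. Hadha stood at 44.6, 46.0 and 38.4 CPM in CKO 1 to 3, against 41.2, 54.8 and 63.3 CPM in flox 1 to 3, with a log2 fold change of -0.30 (SE 0.20, 95% interval -0.76 to 0.16). Its flox values reached higher, but flox 1 lay within the CKO range. Hadhb stood at 79.6, 113 and 75.7 CPM in CKO, against 88.3, 98.2 and 92.2 CPM in flox, and CKO held both extremes (log2 fold change -0.05, SE 0.19). The ratio of Hadhb to Hadha in CPM was 1.78, 2.47 and 1.97 in CKO 1 to 3 and 2.15, 1.79 and 1.46 in flox 1 to 3, and these ranges overlapped. Per kilobase Hadhb stood above Hadha in all 6 libraries, by 2.86-fold to 4.84-fold, on a 4017-base Hadha transcript. For shorter chains, Echs1, the enoyl-CoA hydratase, stood at 124, 168 and 112 CPM in CKO, against 106, 141 and 134 CPM in flox. Hadh, the next dehydrogenase, stood at 48.0, 49.4 and 41.0 CPM in CKO, against 38.7, 47.6 and 36.2 CPM in flox (log2 fold change 0.18, SE 0.18). Of Hadh, 2 flox libraries lay under the CKO range and flox 2 within it. Acaa2, the thiolase that ends the round, stood at 59.5, 68.2 and 45.0 CPM in CKO, against 58.4, 66.1 and 61.5 CPM in flox, and flox lay inside the CKO range.

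Double bonds of unsaturated fatty acids need auxiliary enzymes. Eci1, a mitochondrial enoyl-CoA isomerase, stood at 40.1, 36.4 and 33.3 CPM in CKO, against 33.0, 30.1 and 35.9 CPM in flox (log2 fold change 0.15, SE 0.17). CKO 1 and CKO 2 lay above all flox libraries and CKO 3 within their range. Eci2, an isomerase found in mitochondria and peroxisomes, stood at 87.1 ± 14.3 CPM in CKO and 85.2 ± 9.23 CPM in flox. Decr1, the dienoyl-CoA reductase, stood at 27.4 ± 2.79 CPM in CKO and 29.5 ± 3.78 CPM in flox (SD, n = 3 each). Electrons from the dehydrogenases pass through the electron transfer flavoprotein to its ubiquinone oxidoreductase, Etfdh. Etfa stood at 108, 124 and 81.2 CPM in CKO 1 to 3, against 106, 95.3 and 107 CPM in flox 1 to 3. Etfb, the steadiest of the 29 genes, stood at 181, 159 and 157 CPM in CKO, against 152, 153 and 162 CPM in flox, with a log2 fold change of 0.09 (SE 0.14, 95% interval -0.24 to 0.42). Etfdh was less even, at 36.5, 25.1 and 19.8 CPM in CKO, against 21.5, 32.5 and 29.3 CPM in flox, and again CKO held both extremes. The ratio of Etfb to Etfa was 1.63 ± 0.331 in CKO and 1.52 ± 0.0790 in flox (SD, n = 3 each).

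The peroxisomal genes gave the single case without overlap. Acaa1a, the peroxisomal thiolase (chromosome 9, 119339676 to 119350299), stood at 73.0, 67.8 and 69.7 CPM in CKO 1 to 3, against 57.5, 59.8 and 62.8 CPM in flox 1 to 3. Every CKO library was above every flox library, which held for 1 of 29 genes (3.45%), while 3.88% of all genes tested had CKO wholly above flox, 4.12% wholly below and 8.00% either, so the share was not above the background. By edgeR's quasi-likelihood test its log2 fold change of 0.22 had an SE of 0.15, an unadjusted p of 0.159 and an adjusted p of 0.9996, with log2 ratios of 0.26 without and 0.25 with haemoglobin. Exons of Acaa1a overlap those of Myd88 on the other strand, and no strand setting for the counting is given in the sources used here. Its close relative Acaa1b, named after its values were seen, had 0, 1 and 13 counts in CKO and 0 in each flox library. Ech1, a dienoyl-CoA isomerase of peroxisomes and mitochondria, stood at 157, 213 and 163 CPM in CKO, against 160, 173 and 141 CPM in flox (log2 fold change 0.17, SE 0.18). CKO 2 was its highest library and the other CKO values lay within the flox range. Abcd3, a transporter of the peroxisomal membrane, stood at 19.3, 21.2 and 21.1 CPM in CKO, against 20.0, 25.7 and 21.8 CPM in flox, with a log2 fold change of -0.13 (SE 0.19). Of the multifunctional enzymes, Hsd17b4, the D-bifunctional protein, stood at 72.1 ± 9.46 CPM in CKO and 72.8 ± 9.25 CPM in flox, and Ehhadh, the L-bifunctional protein, at 2.74 ± 0.743 CPM in CKO and 3.29 ± 1.01 CPM in flox. Hsd17b4 therefore stood 26.7-fold above Ehhadh per kilobase over the 6 libraries. Hacl1, a lyase of the alpha-oxidation that shortens phytanic acid, stood at 6.74, 7.70 and 9.46 CPM in CKO, against 5.86, 8.91 and 6.39 CPM in flox.

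Ppargc1a, the co-activator PGC-1alpha that promotes mitochondrial and oxidation genes (chromosome 5, 51454250 to 51567726), was the most variable of the 29. It stood at 17.8, 7.54 and 10.9 CPM in CKO 1 to 3, against 8.62, 10.2 and 18.3 CPM in flox 1 to 3, a spread of 2.43-fold over the libraries. CKO 1 was its highest CKO library and flox 3 its highest flox library. They were also the libraries with most rod transcripts, 18630 CPM in CKO 1 and 15936 CPM in flox 3, and the part of rods in this level was not tested. The log2 fold change was -0.03 (SE 0.41).

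Libraries differed in the summed level of the pathway, with overlap between CKO and flox. The 29 genes summed to 1595, 1716 and 1434 CPM in CKO 1 to 3, against 1454, 1618 and 1615 CPM in flox 1 to 3. Without TMM scaling they took 0.161%, 0.152% and 0.139% of the counts in CKO 1 to 3, against 0.153%, 0.167% and 0.171% in flox 1 to 3. The groups overlapped on both scales, but the order of libraries turned with the scaling. The lowest TMM-scaled sums were those of CKO 3, in which 23 of the 29 genes lay below their own mean over the libraries, and flox 1, in which 25 did; in the other libraries 7 to 13 did. CKO 3 and flox 1 were also the pair of libraries most alike over all genes tested (Pearson r = 0.952 across genes, which are not independent), and both held under 1 CPM of haemoglobin. CKO 2, the third library without haemoglobin, had the highest TMM-scaled sum but the second lowest share of counts. By share of counts the libraries without haemoglobin were the 3 lowest. The 6 peroxisomal genes summed to 337, 390 and 327 CPM in CKO, against 313, 355 and 302 CPM in flox. Within the libraries without haemoglobin (CKO 2 and CKO 3 against flox 1) the log2 ratio was positive for 22 of 29 genes. Within those with it (CKO 1 against flox 2 and flox 3) it was positive for 15, and 14 of the 29 genes had the same sign in both. The shares of all genes tested with these signs were not computed. Flox 1, in which 25 of the 29 genes lay below their own mean, was the only flox library in the first ratio. CKO 1 was the only CKO library in the second. The median gene of the pathway differed 1.51-fold between its lowest and highest library. For the 10338 genes between the pathway's lowest and highest level it was 1.83-fold, but these were not matched in level. The median log2 CPM was 5.45 for the 29 genes and 4.13 over all genes tested, and the part of level in this contrast was not tested. CKO 3 and flox 1 also had the lowest rod sums, 6721 CPM in CKO 3 and 7415 CPM in flox 1, and the highest Müller glia and astrocyte sums, 1375 CPM in CKO 3 and 876 CPM in flox 1, and the part of these cells' transcripts and of haemoglobin in the pathway sums was not tested.

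**Figure D4:**
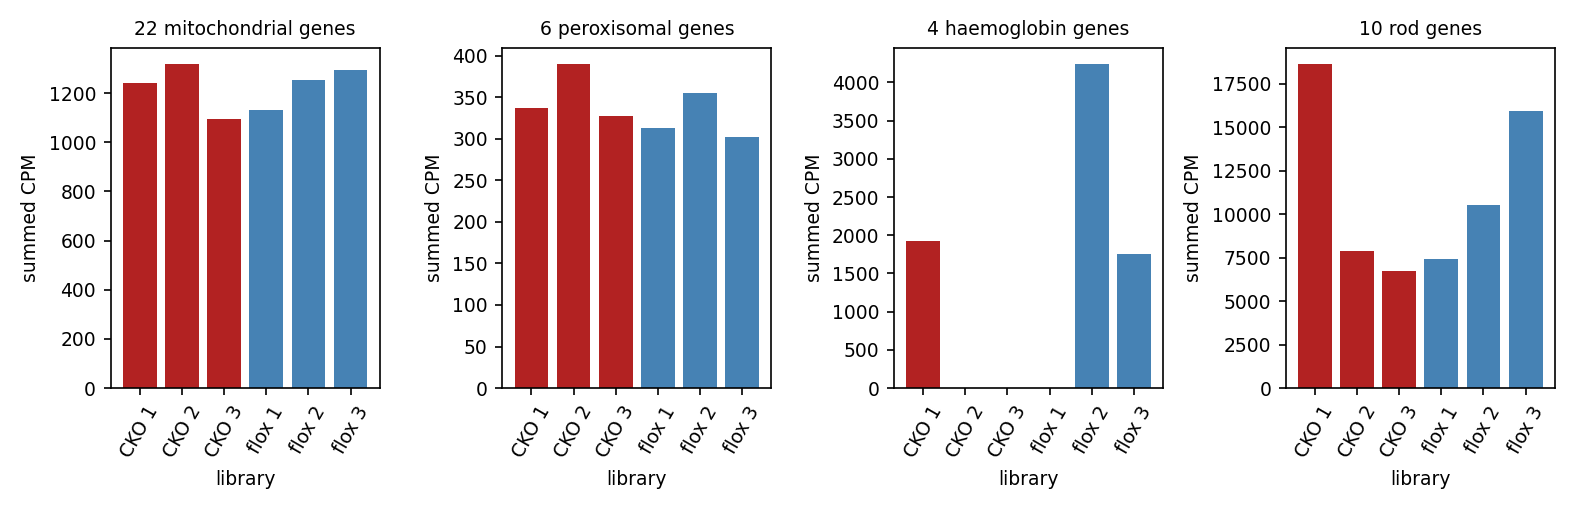
Summed CPM per library of the 22 mitochondrial genes, the 6 peroxisomal genes, 4 haemoglobin genes and 10 rod genes, with CKO in red and flox in blue. The TMM-scaled mitochondrial sum is lowest in CKO 3 and flox 1, and haemoglobin is under 1 CPM in CKO 2, CKO 3 and flox 1.

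Around the pathway, 92 further genes in 5 lists gave a like picture. Of 85 tested genes 45 had a positive and 40 a negative log2 fold change, 0 passed at an adjusted p of 0.05 (edgeR), 2.35% had an unadjusted p under 0.05 beside 2.81% of all genes, and the groups did not overlap for 8 (9.41%) beside 8.00%. Among other mitochondrial oxidation genes 12 of 16 were positive (median 0.10), led by the dehydrogenase relative Acad12 at 6.16 ± 2.92 CPM in CKO and 3.38 ± 1.14 CPM in flox. Ucp2, an inner-membrane carrier abundant in macrophages, stood at 1031 ± 376 CPM in CKO and 847 ± 101 CPM in flox. Mlycd, which removes the CPT1 inhibitor malonyl-CoA, stood at 7.41 ± 1.68 CPM in CKO and 9.41 ± 2.60 CPM in flox.

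Of other peroxisomal oxidation genes 11 of 17 were positive (median 0.17). Acox3, an acyl-CoA oxidase for branched chains, stood at 36.0, 50.5 and 50.6 CPM in CKO 1 to 3, against 30.9, 35.4 and 35.3 CPM in flox 1 to 3. The groups did not overlap, and edgeR gave a log2 fold change of 0.43 with an SE of 0.19 and an unadjusted p of 0.0542, with log2 ratios of 0.71 without and 0.03 with haemoglobin. Abcd2, a transporter of very-long-chain acyl-CoA, stood at 13.3 ± 2.13 CPM in CKO and 23.1 ± 12.5 CPM in flox, lower in CKO among libraries with haemoglobin (log2 ratio -1.44) and higher among those without (0.73). Crot, which moves shortened acyl groups onto carnitine, stood at 56.1 ± 19.6 CPM in CKO and 41.2 ± 7.86 CPM in flox.

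Peroxisome biogenesis genes split 8 to 8 (median -0.03). Pex26, a membrane protein of peroxisomal import, stood at 2.22 ± 0.837 CPM in CKO and 3.75 ± 0.757 CPM in flox, with overlap. The docking factor Pex14 stood at 14.3 ± 1.80 CPM in CKO and 11.6 ± 0.218 CPM in flox, without overlap. Regulators were positive in 7 of 16 (median -0.07). Sirt1, a deacetylase that acts on PGC-1alpha, stood at 12.9, 8.46 and 12.2 CPM in CKO, against 18.5, 15.7 and 18.9 CPM in flox, without overlap (log2 fold change -0.66, SE 0.25, unadjusted p = 0.0286 and adjusted p = 0.9996 by edgeR). Sirt3, the mitochondrial deacetylase, stood at 25.0 ± 8.87 CPM in CKO and 16.4 ± 2.93 CPM in flox, with overlap. Gabpa, an ETS factor of mitochondrial genes, stood at 25.6 ± 1.35 CPM in CKO and 31.4 ± 0.884 CPM in flox, without overlap. Branched-chain amino acid and ketone genes were positive in 7 of 20 (median -0.06). Bckdha, a subunit of the branched-chain ketoacid dehydrogenase, stood at 25.5 ± 4.15 CPM in CKO and 19.1 ± 3.74 CPM in flox, with overlap. Mccc1 of the leucine route stood at 7.93 ± 1.67 CPM in CKO and 11.0 ± 0.734 CPM in flox, without overlap. Oxct1, which activates ketone bodies, stood at 129, 69.3 and 83.9 CPM in CKO, against 77.4, 156 and 178 CPM in flox, highest in libraries with haemoglobin and high rod levels, whose part was not tested.

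**Figure D5:**
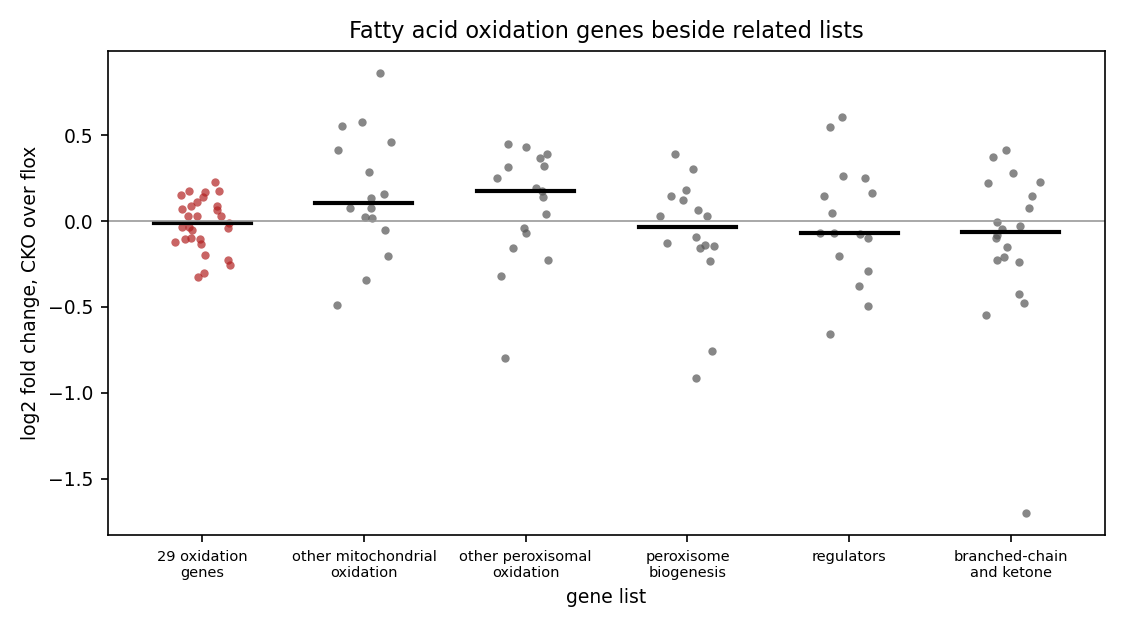
Log2 fold change, CKO over flox, of each tested gene (point) in the 29 fatty acid oxidation genes and 5 related lists, with the median of each list as a bar. The 29 genes lie between -0.33 and 0.22, the genes of the 5 related lists between -1.70 and 0.86, and the list medians between -0.07 and 0.17.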

How the data were processed

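The authors deposited 1 table of estimated counts per gene symbol, without scaling, in which 16.6% of the values were not whole. The submitters' processing notes name fastp 0.18.0, HISAT2 2.2.4 and the mouse build mm10, in no stated order. No source used here names the counter or says whether strand was used, so reads of overlapping genes cannot be told apart. Exons of 7 of the 29 genes (Crat, Acadvl, Hadha, Echs1, Etfdh, Acaa1a and Hacl1) overlap a counted gene on the other strand. Of 21956 rows, 83 without a symbol (0.0122% to 0.0185% of counts) were left out, and rows of 22 repeated symbols were summed.

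Titles gave group and replicate. Counts were rounded and tested with edgeR 4.0.16 in R 4.3.3 (TMM, filterByExpr, robust quasi-likelihood fit with group as the only term, prior count 0.125), with Benjamini-Hochberg adjustment over all genes. The code was tested on simulated data. Libraries above 100 CPM of haemoglobin were set apart for the ratios with and without it. Intervals cover 95%. Coordinates and transcript lengths (longest APPRIS principal form) come from GENCODE M21 on GRCm38, promoters from RefSeq.

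The 29 genes and all lists were chosen with earlier results of these data known. Among the 29, values per library are given for the 10 genes of smallest unadjusted p and for Cpt1a, Cpt2, Slc25a20 and Ppargc1a. They are also given for the gene of the 29 without overlap and for some others. Most named genes of the other lists are given by mean and SD. From each other list the 3 genes of smallest p are named, apart from 1 that is not reported here, and any further gene is marked. Floors of 3 counts cover counting error only, as do depths of 24 counts or more per gene. Nothing says that the libraries are separate mice, so p-values measure the spread between these samples, which may be technical. Alternatives were RLE scaling, no filter, DESeq2 1.42.0, a replicate block, summed codes, a haemoglobin term and each library left out.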

Additional observations from a re-analysis of the deposited data

How the results depend on the processing

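Of the 29 genes 0 passed under every alternative run, with adjusted p-values of 0.683 or more. Over all genes, DESeq2 called 23 and the haemoglobin term 2, beside 0 by edgeR, which had 379 genes at an unadjusted p under 0.05 (DESeq2 581). The title number as a replicate block called 0 genes and reversed no gene of the pathway. Same-numbered libraries deviated from their group means with correlations of -0.32, 0.00509 and -0.33. The other pairs of a CKO and a flox library had correlations of -0.13 to 0.39. Deviations from a mean of 3 libraries are tied to each other, so these values cannot settle whether the numbers pair the libraries. Under that block the medians were -0.02 for the mitochondrial and 0.07 for the peroxisomal genes. Over 348 values of single genes, 307 kept the sign and 41 did not, and 14 genes kept it throughout, Acadl, Hadha and Acaa1a among them. None of these genes was called, and the cause was not tested.

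With libraries of a shared code summed, the sign turned for Cpt2 (0.054), Acadvl (0.00191), Eci2 (-0.00274), Etfa (-0.00749), Etfdh (0.14), Hsd17b4 (0.00321) and Ppargc1a (0.27). With the haemoglobin term it turned for Cpt2 (0.040), Etfdh (0.15), Hsd17b4 (0.036) and Ppargc1a (0.21). With each library left out, log2 fold changes ranged from -0.00608 to 0.36 for Cpt1a, -0.19 to 0.047 for Cpt2, -0.19 to 0.28 for Slc25a20, -0.10 to 0.15 for Acadm, -0.038 to 0.26 for Acads, -0.089 to 0.20 for Ivd, -0.26 to 0.056 for Hadhb, -0.10 to 0.20 for Echs1, -0.25 to 0.044 for Acaa2, -0.11 to 0.13 for Eci2, -0.12 to 0.18 for Etfa, -0.31 to 0.15 for Etfdh, -0.077 to 0.10 for Hsd17b4 and -0.43 to 0.36 for Ppargc1a. The median of the mitochondrial genes then ranged from -0.085 to 0.054 and that of the peroxisomal genes from -0.030 to 0.16. The mitochondrial median, -0.00332, lay between -0.02 and 0.03 under the other alternatives and so had no stable sign. RLE scaling, no filter and DESeq2 turned no gene's sign. Depth limited Ehhadh most, with 24 to 83 counts.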
